A study of Mus musculus with 4 samples.

Results

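The cells described here are the cardiac and lateral mesoderm-like cells of WT embryoid bodies (EBs). EBs are aggregates in which mouse embryonic stem cells (ESCs) differentiate with no directing factor. Cells were selected on 6 genes, Tnnt2, Hand1, Hand2, Foxf1, Tnni1 and Tbx20, and a cell with a unique molecular identifier (UMI, 1 counted transcript) in 3 or more of them is called a gate cell. Of 9998 WT cells with at least 2000 UMIs and 1000 detected genes, 1904 passed this gate. They were 886 of 3660 cells in WT replicate 1 and 1018 of 6338 cells in WT replicate 2.

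The study compared EBs of LSD1 KO ESCs, in which CRISPR removed the promoter and first exon of the gene for the histone demethylase LSD1 (Kdm1a), with EBs of the unedited V6.5 ESCs. Both lines were kept in 2i and LIF and then aggregated in hanging drops in serum medium without either for 6 days. Each genotype had 2 biological replicates and 1 droplet 3′ library each, and which LSD1 KO clone was used is not given in the sources used here. Libraries held 72285943 to 75406512 UMIs, and 2450 to 6338 cells passed the depth filter. Kdm1a stood at 1.09 and 0.835 CPM (UMIs of a gene scaled to a common library total) in LSD1 KO libraries, against 217 and 229 CPM in WT libraries, although 3′ reads lie outside the deleted part. WT libraries shared 6 cell barcodes, 1 of them between gate cells.

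Lateral plate mesoderm is the sheet of embryonic mesoderm that gives rise to the heart, the smooth muscle of the gut and vessels, and the limb buds. Its cells answer to BMP signals and turn on Hand, Gata and Tbx transcription factors before those that become heart muscle build sarcomeres, the contractile units of muscle. Early heart tissue is known for the transcription factors Nkx2-5, Isl1, Gata4, Mef2c and Tbx5, and splanchnic and extraembryonic mesoderm for Foxf1.

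The 6 selecting genes fall into 2 kinds. Hand1 and Hand2 encode basic helix-loop-helix factors of the heart and lateral mesoderm, Tbx20 a T-box factor of the heart, and Foxf1 a forkhead factor of splanchnic and extraembryonic mesoderm. Tnnt2 (cardiac troponin T) and Tnni1 (slow troponin I, which the embryonic heart also uses) are parts of the thin filament of the sarcomere. In mm9, Tnnt2 and Tnni1 lie close together, at chr1:137737452-137748837 and chr1:137679642-137707566, both on the plus strand. Hand1 lies at chr11:57642207-57646320 on the minus strand, Hand2 at chr8:59799780-59803314 on the plus strand and Tbx20 at chr9:24527648-24578746 on the minus strand.

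The gate used these 6 genes in these cells, so their levels in gate cells are a description. Hand1 was detected in 92.3% and 89.2% of gate cells (WT replicates 1 and 2), against 12.8% and 7.74% of other WT cells. Hand2 was detected in 76.2% and 77.5% of gate cells, against 4.58% and 4.25% of other WT cells. Tnni1 was found in 66.5% and 67.8% of gate cells, against 5.05% and 5.51% of other WT cells. Hand1 was thus the most widely carried of the 6 genes in both libraries. Tnnt2 was found in 43.7% and 39.5% of gate cells, against 2.45% and 1.58% of other WT cells. Foxf1 was found in 57.0% and 37.3% of gate cells, against 2.92% and 1.26% of other WT cells, and was the gene whose share differed most between the 2 libraries. Tbx20 was found in 87.4% and 80.6% of gate cells and also in 30.6% and 19.4% of other WT cells. Only 58.8% and 52.0% of all Tbx20 UMIs of a library lay in gate cells, while for the other 5 genes the share was 80.9% to 92.8%.

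Epithelial cells, taken as cells with 3 or more of 6 epithelial genes and outside the gate, gave a level to compare with. Free RNA, doublets and expression in these cells themselves can all add to it. In these 983 and 1201 cells Tnnt2 was found in 3.26% and 1.83%, Hand1 in 10.3% and 5.25%, Hand2 in 1.42% and 0.666%, and Foxf1 in 1.53% and 0.500%. Tnni1 was found in 1.53% and 2.33% of them and Tbx20 in 35.4% and 24.1%. Tbx20 was thus found in more of them than Hand1. Free RNA, read from barcodes under 100 UMIs, held more Hand1 (161 and 86.4 CPM) than Tbx20 (71.5 and 48.5 CPM). The source of the Tbx20 share was not tested. Median depth was 15682.5 and 9499.5 UMIs in gate cells, 13972.5 and 9628 UMIs in other WT cells and 21714.5 and 12392 UMIs in all epithelial cells, so the epithelial cells were the deeper ones. Shares of Tbx20 in other WT cells were below those in epithelial cells at these depths. Thinned to 2000 UMIs, Tbx20 was found in 33.0% and 33.8% of gate cells, against 10.6% and 6.56% of other WT cells and 7.22% and 6.58% of epithelial cells, so that other WT cells lay above epithelial cells in replicate 1. With every cell thinned to 2000 UMIs, Hand1 was found in 56.3% and 52.8% of gate cells, against 4.90% and 3.46% of other WT cells and 1.22% and 1.17% of epithelial cells.

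No gap in the number of gate genes carried per cell marked the threshold. In WT replicate 1, 1511 cells carried 0 gate genes, 905 carried 1, 358 carried 2, 243 carried 3, 300 carried 4, 239 carried 5 and 104 carried all 6. In WT replicate 2 the numbers were 3636, 1254, 430, 403, 351, 207 and 57. In replicate 1 the cells carrying 4 genes outnumbered those carrying 3, whereas in replicate 2 each further gene was met in fewer cells. The most frequent combination differed between libraries, being all 6 genes in replicate 1 (104 cells, and 57 in replicate 2) and Hand1, Hand2 and Tbx20 alone in replicate 2 (122 cells, and 63 in replicate 1). Hand1, Hand2, Tnni1 and Tbx20 without the other pair were found in 79 and 117 cells, 10.3% of the pooled gate cells.

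**Figure D1:**
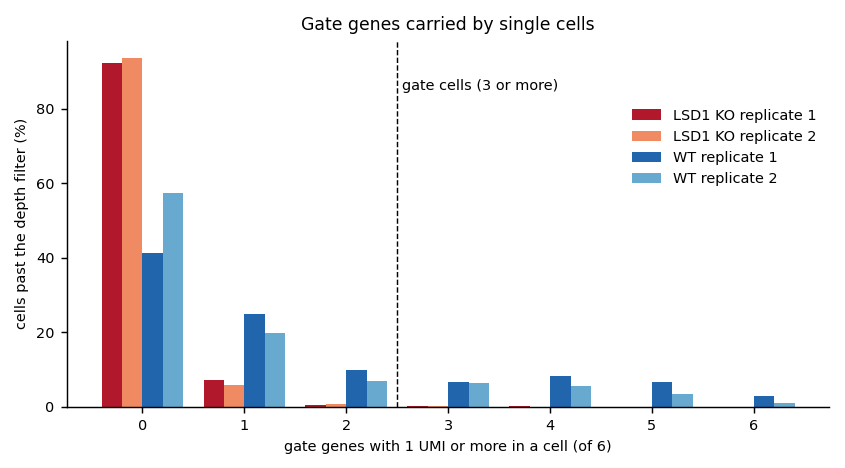
Share of cells past the depth filter (%, y axis) that carried 0 to 6 of the gate genes with 1 UMI or more (x axis), with 1 bar per library and the gate threshold as a dashed line. The bars at 3 genes and above sum to 0.0619% and 0.0408% in LSD1 KO libraries, against 24.2% and 16.1% in WT libraries.

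The first question put to the data was whether LSD1 KO EBs hold such cells. Gate cells were 3 of 4850 LSD1 KO cells in replicate 1 (0.0619%, exact 95% binomial interval 0.0128 to 0.181%) and 1 of 2450 in replicate 2 (0.0408%, 0.00103 to 0.227%). In WT they were 24.2% (22.8 to 25.6%) of replicate 1 and 16.1% (15.2 to 17.0%) of replicate 2. These intervals cover counting error only. The share averaged 0.0513% ± 0.0149 in LSD1 KO and 20.1% ± 5.76 in WT (SD, n = 2 each). Both LSD1 KO libraries lay below both WT libraries, and an exact two-sided permutation test gave p = 0.33, the smallest value that 2 against 2 libraries allow. The shares do not overlap, while the test cannot pass 0.05 at this number of libraries. The gate was made for cells of WT EBs, with earlier results of these data known. A higher share in WT is thus in part set by that choice, and the shares are given as a description.

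Depth overlapped between genotypes. Cells outside the gate had a median of 12829 and 24641 UMIs in LSD1 KO, against 13972.5 and 9628 UMIs in WT. With every cell thinned to 2000 UMIs before the gate, 0 of 4850 and 0 of 2450 LSD1 KO cells passed, which allows a share of up to 0.0619% and 0.122%, against 158 WT cells (4.32%) in replicate 1 and 237 (3.74%) in replicate 2. Thinned in this way, the 2 WT libraries were closer to each other than before. The 4 LSD1 KO gate cells were too few for a comparison within the gate, for which 50 cells per library were asked. LSD1 KO cells with exactly 2 gate genes numbered 23 and 15, against 358 and 430 WT cells.

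In whole-EB sums, the levels of the 6 gate genes are a description, since the gate found them high in the WT cells that enter these sums. The test for other genes was edgeR's quasi-likelihood test with Benjamini-Hochberg adjustment over 16918 genes, in which 21.7% of all genes fell and 22.7% rose, so a fall by itself was common. Hand1 stood at 2.15 and 1.06 CPM in LSD1 KO EBs, against 163 and 90.2 CPM in WT EBs. Hand2 stood at 0.258 and 0.289 CPM, against 35.2 and 31.0 CPM in WT EBs. Tnnt2 stood at 0.894 and 0.337 CPM, against 26.9 and 26.7 CPM in WT EBs. For all of these the genotypes did not overlap. In such sums, fewer cells of a type and less RNA per cell cannot be told apart.

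What else marked the WT gate cells was read from UMI sums of gate cells and of all other WT cells of the same library, with 5 CPM added to both before a fold was taken. A gene is called higher or lower where the fold was 2 or more in the same direction in both libraries. This contrast is the one the gate made, so no test was run. Of 9287 genes with 10 CPM or more in 1 of the 4 sums, 191 were higher (2.06%) and 284 lower (3.06%), the gate genes left out. The 20 genes with the highest folds at 50 CPM or more are named below with the 10 lowest.

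Several of the 20 are known from heart muscle. Ttn, the giant spring of the sarcomere, stood at 76.1 and 81.3 CPM in gate cells, against 4.48 and 3.15 CPM in other WT cells. Myl7, the atrial regulatory light chain, stood at 60.1 and 160 CPM, against 6.27 and 10.7 CPM. Myl4, the atrial essential light chain, stood at 84.7 and 190 CPM in gate cells, against 12.5 and 14.4 CPM in other WT cells. Both light chains were thus over 2 times as high in the gate cells of replicate 2 as in those of replicate 1, a spread that the other cells did not show to that extent. Mef2c, a transcription factor of early heart and muscle, stood at 149 and 263 CPM, against 18.6 and 16.3 CPM in other WT cells. Dpf3, a subunit of the BAF chromatin remodelling complex of heart and skeletal muscle, stood at 95.6 and 65.4 CPM, against 8.13 and 4.86 CPM.

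The ligands Bmp4 and Bmp5 were among the leaders. Bmp4 stood at 157 and 159 CPM in gate cells, against 14.5 and 13.3 CPM in other WT cells, folds of 8.30 and 8.93. Bmp5 stood at 162 and 187 CPM, against 24.8 and 25.7 CPM, folds of 5.60 and 6.27. Of the 20 genes, Bmp4 differed least between the gate cells of the 2 libraries. Msx1, a homeobox target of BMP signals, stood at 167 and 116 CPM in gate cells, against 23.6 and 18.0 CPM in other WT cells. Unc5c, a netrin receptor, stood at 652 and 579 CPM, against 77.9 and 34.6 CPM.

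Rgs5, a regulator of G protein signalling known from pericytes, stood first when genes were ranked by the smaller of their 2 folds, with 10.1 and 9.51, at 131 and 111 CPM in gate cells, against 8.46 and 7.17 CPM in other WT cells. Snai2, a repressor of epithelial genes, stood at 97.7 and 79.8 CPM, against 5.45 and 8.36 CPM. Hand2os1, the long noncoding RNA that starts beside Hand2 on the other strand, stood at 69.4 and 133 CPM, against 4.22 and 8.17 CPM. It followed Hand2 in being higher in the gate cells of replicate 2. The RNA-binding protein gene Rbms3 had folds of 9.15 and 11.1. The others among the 20 were Dok4, Runx1t1, Stard8, C430049B03Rik, Pmp22, Igsf11 and Nhsl2, with folds between 5.38 and 10.8.

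**Figure D2:**
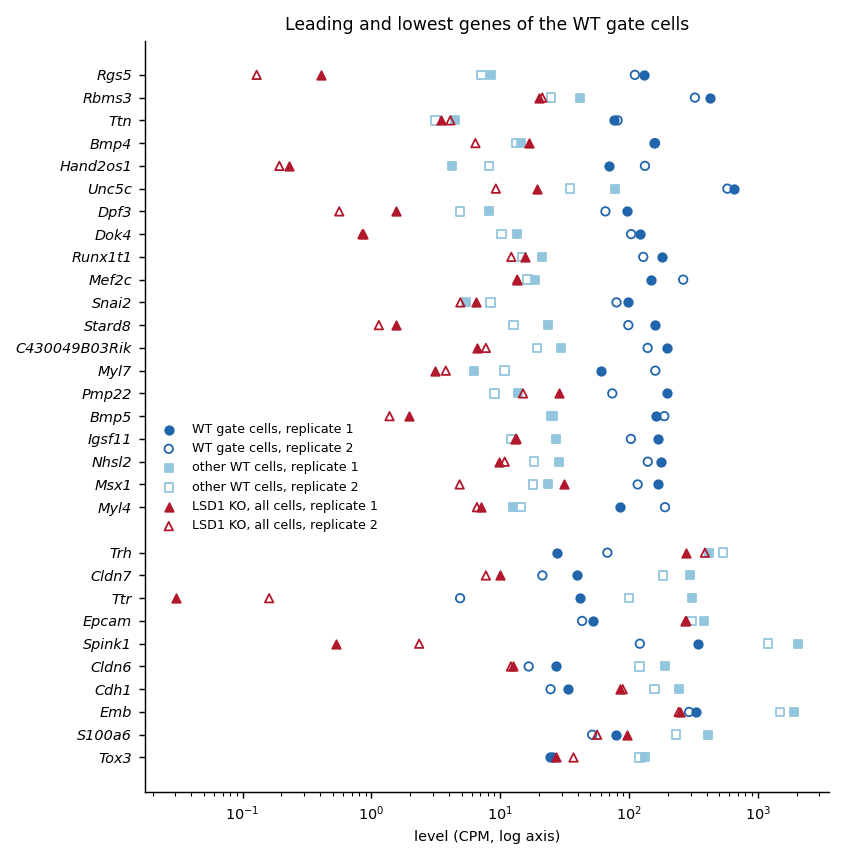
Level (CPM, log axis) of the 20 leading and the 10 lowest genes in WT gate cells (filled and open circles), other WT cells (squares) and all LSD1 KO cells (triangles), 1 symbol per library. For the 20 leading genes both WT gate sums lie to the right of all 4 other sums; Rgs5 stands at 131 and 111 CPM in gate cells.

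The 10 lowest genes were those of epithelium, endoderm and of the hormone precursor Trh. Epcam, the epithelial adhesion molecule, stood at 52.2 and 43.1 CPM in gate cells, against 381 and 304 CPM in other WT cells. Cdh1, or E-cadherin, stood at 33.5 and 24.5 CPM, against 242 and 157 CPM. The tight junction gene Cldn7 stood at 39.2 and 21.2 CPM, against 296 and 184 CPM. With 5 CPM added, Cdh1 and Cldn7 in gate cells were at 0.139 to 0.182 of their level in other WT cells. Trh stood at 27.4 and 67.8 CPM in gate cells, against 414 and 534 CPM in other WT cells. Ttr, the visceral endoderm carrier protein transthyretin, stood at 41.3 and 4.87 CPM, against 305 and 99.7 CPM. Spink1, Cldn6, Emb, S100a6 and Tox3 completed the 10.

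A gene is counted as past the filter below where it had 10 CPM in 1 of the 4 sums. The gene lists, chosen with earlier results of these data known, sort these differences by role. Of the 16 cardiac transcription factors 12 passed the filter on low values, and 8 were higher and 0 lower, with medians of 1.09 and 1.33 on the log2 scale, beside 0.01 and 0.00 over all genes. Besides Mef2c these were Gata6, Myocd, Tbx5, Tbx2, Smarcd3, Hey2 and Zfpm2. Myocd, the coactivator of serum response factor in heart and smooth muscle, stood at 39.7 and 82.1 CPM in gate cells, against 15.7 and 16.7 CPM in other WT cells. Smarcd3, a BAF subunit of the heart fields, stood at 54.3 and 82.6 CPM, against 11.2 and 8.64 CPM. Tbx5, a factor of the first heart field and limb, was low, at 7.67 and 13.9 CPM, against 0.671 and 0.916 CPM.

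Nkx2-5 and Isl1, the factors most used to recognise the heart fields, did not set gate cells apart. Nkx2-5 stood at 7.05 and 5.96 CPM in gate cells, against 5.30 and 3.70 CPM in other WT cells, and did not pass the filter. Isl1, the second heart field factor, stood at 30.7 and 48.3 CPM in gate cells, against 43.2 and 42.2 CPM in other WT cells, lower in one library and higher in the other. Gata4 stood at 55.3 and 81.7 CPM, against 50.8 and 34.7 CPM, so that its fold of 1.08 in replicate 1 and 2.18 in replicate 2 missed the call. Irx4, a ventricular factor, stood at 1.55 and 1.26 CPM in gate cells. The label of the cells was thus met by some defining heart genes and not by others.

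Sarcomere genes were split in the same way. Of 18 listed, 12 passed the filter and 5 were higher (Ttn, Myl7, Myl4, Nexn and Myh6) and 0 lower, with medians of 0.80 and 1.26. Nexn, a Z-disc protein, stood at 83.7 and 78.3 CPM in gate cells, against 15.8 and 18.8 CPM. Myh6, the atrial myosin heavy chain, stood at 10.5 and 23.1 CPM, against 1.47 and 1.37 CPM. Genes of ventricular or later muscle were uneven in gate cells. Myh7, the ventricular heavy chain, stood at 20.4 and 35.5 CPM in gate cells, against 36.0 and 20.3 CPM in other WT cells. Lowest were Tnni3 (adult cardiac troponin I) at 0.186 and 0.541 CPM, Myl2 (ventricular light chain) at 0.371 and 0.812 CPM, and Mybpc3 (cardiac myosin-binding protein) at 0.248 and 0.0902 CPM. Tnnc1, cardiac troponin C, stood at 110 and 204 CPM in gate cells, against 162 and 91.5 CPM in other WT cells. It was thus lower in gate cells of replicate 1 and higher in those of replicate 2. Myl3 was lower in both libraries without reaching 2-fold in replicate 2, at 26.4 and 39.8 CPM in gate cells, against 78.2 and 55.5 CPM.

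Of 8 genes of calcium handling and ion transport, 4 passed the filter and 3 were higher. Ryr2, the calcium release channel of the heart, stood at 132 and 188 CPM in gate cells, against 34.3 and 25.8 CPM in other WT cells. Slc8a1, the sodium-calcium exchanger, stood at 63.3 and 73.4 CPM, against 10.6 and 10.2 CPM. Cacna1c, the L-type calcium channel, stood at 59.7 and 39.3 CPM, against 10.3 and 8.49 CPM. The fourth past the filter, the calcium pump gene Atp2a2, stood at 148 and 124 CPM, against 135 and 115 CPM, and was not called. Hcn4, a pacemaker channel, stood at 5.94 and 6.5 CPM in gate cells and Kcnh2, a potassium channel, at 3.16 and 2.71 CPM. Pln and Casq2, proteins of the sarcoplasmic reticulum, stood at no more than 0.433 CPM in gate cells. Of the smooth muscle and actin genes only Acta2, smooth muscle actin, was called of 5 past the filter, at 458 and 135 CPM in gate cells, against 63.7 and 28.5 CPM.

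**Figure D3:**
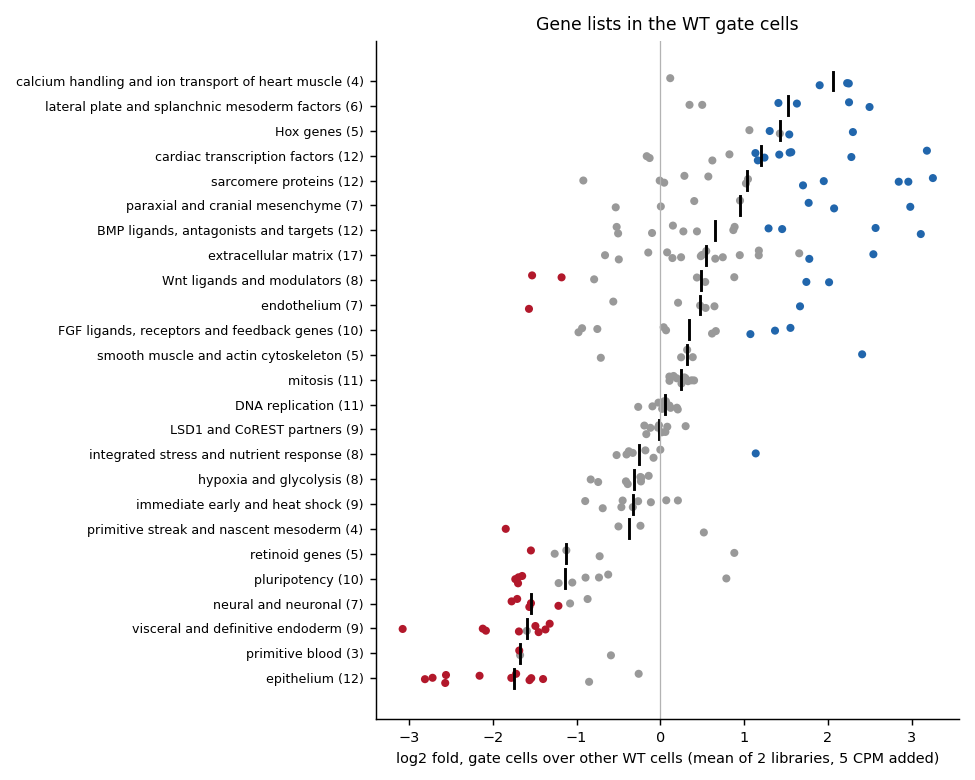
Log2 fold of gate cells over other WT cells (x axis, mean of the 2 WT libraries, 5 CPM added) for the genes of each list that passed the filter on low values (number in brackets), with blue for genes called higher, red for genes called lower, gray for the rest and a black bar at the list median. Calcium handling, lateral plate, Hox and cardiac factor lists lie to the right, and epithelium, blood, endoderm and neural lists to the left.

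Lateral mesoderm factors were present in part. Of 15 listed, 6 passed the filter and 4 were higher: Msx1, Msx2, Bnc2 and Cdx2. Msx2 stood at 91.3 and 71.0 CPM in gate cells, against 36.3 and 20.2 CPM in other WT cells. Cdx2, a caudal homeobox factor, stood at 33.5 and 16.0 CPM, against 5.82 and 2.82 CPM. Classical markers of the embryo's own lateral plate and its derivatives were at or near 0 in gate cells, with Osr1 at 0.619 and 0.451 CPM, Tbx18 at 0.0619 and 0 CPM, Tbx4 at 0.371 and 0.722 CPM and Foxf2 at 1.92 and 1.35 CPM. Of 24 Hox genes 5 passed the filter, and Hoxb2, Hoxb3 and Hoxb4 were higher, Hoxb2 at 47.4 and 35.7 CPM in gate cells, against 4.48 and 4.33 CPM. Of the 24, 9 stood below 1 CPM in gate cells of both libraries. They included Hoxa10, Hoxa11 and Hoxa13 of the posterior end, and also Hoxa2, Hoxa3, Hoxa5 and Hoxa7 of the same cluster. A low level was thus not particular to the posterior end.

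Some of the BMP ligands and feedback inhibitors, but none of the Id genes, were on the high side. Of 14 listed, 12 passed the filter and 4 were higher, namely Bmp4, Bmp5 and the inhibitory Smads, Smad6 and Smad7. Smad6 stood at 128 and 92.5 CPM in gate cells, against 48.8 and 27.2 CPM in other WT cells. The direct target Id1 stood at 186 and 184 CPM, against 276 and 260 CPM, and Id3 at 418 and 445 CPM, against 381 and 396 CPM, both under 2-fold. The Wnt ligands Wnt2 and Wnt5a were higher and the antagonists Dkk1 and Frzb lower. Wnt2, known from early heart and lung mesoderm, stood at 18.4 and 20.8 CPM, against 1.06 and 1.13 CPM. Fgf3, Fgf15 and Fgfr3 were the 3 called of 10 FGF genes. Of the retinoid genes Cyp26a1, which degrades retinoic acid, was lower, at 13.5 and 19.3 CPM, against 53.9 and 60.0 CPM.

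Markers of other cell types were given beside these results for what a gate can mix in. Of 12 epithelial genes 10 were lower and 0 higher, with a summed level of 1480 and 980 CPM in gate cells, against 3193 and 2242 CPM in other WT cells. The 2 not called, Krt8 and Krt18, stood at 666 and 437 CPM (Krt8) and 609 and 403 CPM (Krt18) in gate cells and made up most of that sum. Of 9 endoderm genes past the filter 8 were lower, with a summed level of 83.7 and 38.3 CPM, against 591 and 275 CPM. Of 7 neural genes 5 and of 10 pluripotency genes 4 were lower, and none of either list was higher. Of 7 endothelial genes Kdr was higher and Flt1 lower. Kdr, a receptor also found on mesoderm before vessels form, stood at 78.8 and 84.8 CPM in gate cells, against 24.6 and 20.3 CPM, and the list had medians of 0.64 and 0.27. Of its defining genes, Cdh5, Tie1 and Emcn stood at 0.180 to 8.42 CPM in gate cells. Tek stood at 15.3 and 2.62 CPM, against 8.78 and 3.40 CPM in other WT cells, and was not called. Pecam1 stood at 18.3 and 8.03 CPM, against 9.56 and 5.79 CPM, and Egfl7 at 87.9 and 73.9 CPM, against 54.7 and 53.2 CPM, neither of them called. Blood globins stood at 0 to 2.04 CPM.

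Of the paraxial and cranial mesenchyme genes Snai2, Twist2 and Pdgfra were higher, and the defining factors were not. Twist2 stood at 34.2 and 21.5 CPM in gate cells, against 2.99 and 2.34 CPM, and Pdgfra at 64.9 and 42.7 CPM, against 11.0 and 13.0 CPM. Foxc2, Tcf15, Meox1 and Alx1 stood at 0.186 to 4.87 CPM in gate cells. The other defining genes were higher than these in at least 1 library. Foxc1 stood at 7.43 and 11.4 CPM in gate cells, against 13.9 and 17.6 CPM in other WT cells. Pax3 stood at 3.59 and 13.7 CPM, against 4.61 and 11.6 CPM. Of 4 streak and nascent mesoderm genes past the filter, T was lower and Eomes, Mesp1 and Lhx1 were not called. T, or Brachyury, stood at 4.70 and 6.77 CPM, against 28.7 and 38.7 CPM. Mesp1, a factor of early cardiac mesoderm, stood at 4.58 and 24.2 CPM, against 3.70 and 10.7 CPM. Replication and mitosis genes did not set the cells apart, as 0 of 11 and 0 of 11 were called and the mitosis list had medians of 0.27 and 0.23. Kdm1a itself stood at 201 and 204 CPM in gate cells, against 223 and 234 CPM in other WT cells, and 0 of the 9 LSD1 and CoREST partner genes were called.

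The kinds of WT cell nearest to the gate were those with 3 or more of 6 mesenchyme genes (40 and 130 cells outside the gate) or of 6 endothelial genes (70 and 34 cells). The values that follow are a description, since these cells were chosen by lists too. Bmp4 stood at 157 and 159 CPM in gate cells, against 1.13 and 5.21 CPM in mesenchyme and 9.14 and 25.3 CPM in endothelial cells. Twist1, a factor of mesenchyme, stood at 45.5 and 31.2 CPM in gate cells, against 171 and 122 CPM in mesenchyme. Kdr stood at 78.8 and 84.8 CPM in gate cells, against 409 and 282 CPM in endothelial cells. Mef2c did not separate gate cells from endothelial cells, at 149 and 263 CPM, against 225 and 112 CPM. Gate cells that also passed another gate numbered 66 and 54 (7.45% and 5.30%), with the epithelial gate the most frequent at 35 and 31 cells. Those 35 and 31 cells had a median of 38652 and 24182 UMIs, over 2 times that of gate cells. Without all mixed cells each of the 20 leading genes, which were chosen by this same fold, still had a fold of 2 or more in both libraries.

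Cells just inside and just outside the threshold differed in degree. Cells with exactly 3 gate genes had 138 and 207 CPM of Mef2c, against 48.5 and 107 CPM in cells with exactly 2. Epcam stood at 115 and 46.6 CPM in cells with 3 gate genes, against 267 and 153 CPM in cells with 2. Bmp4 stood at 114 and 142 CPM with 3 gate genes, against 35.9 and 69.4 CPM with 2. Cells with 2 gate genes thus lay between gate cells and cells with none for these genes, in which Mef2c stood at 8.70 and 4.47 CPM.

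**Figure D4:**
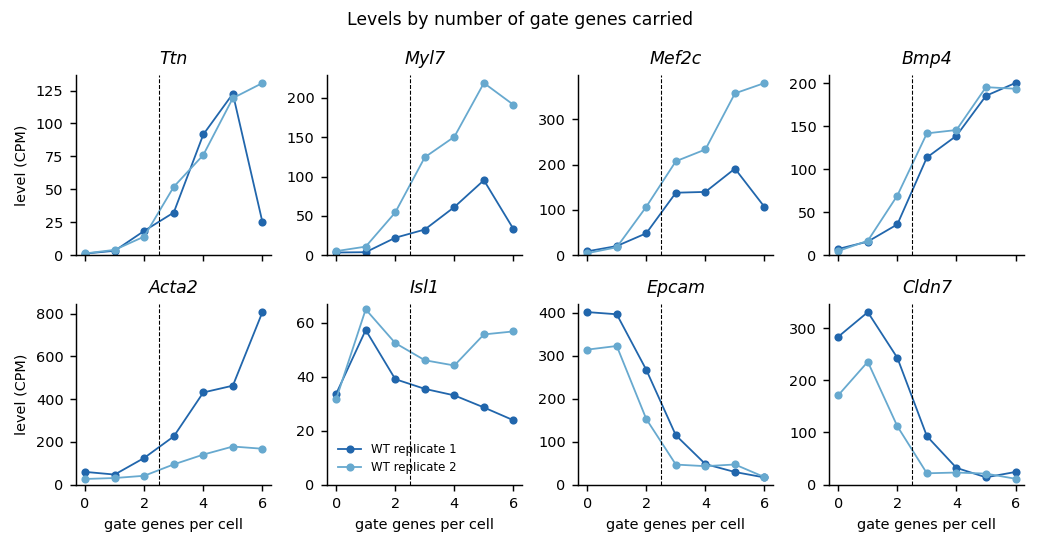
Level (CPM, y axis) of 8 genes in WT cells that carried 0 to 6 gate genes (x axis), 1 line per WT library, with the gate threshold dashed. Bmp4 increased with the number carried in both libraries up to 5 genes and Epcam was lowest at 6, while Ttn and Myl7 in replicate 1 were lower at 6 genes (25.3 and 33.3 CPM) than at 5 (123 and 95.3 CPM).

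Gate cells were not uniform in their sarcomere genes. Both troponin genes, Tnnt2 and Tnni1, were detected in 294 and 324 gate cells, 1 of them in 388 and 444, and neither in 204 and 250. These groups were set by 2 of the gate genes, and the values are a description. Ttn stood at 176 and 212 CPM in cells with both, 17.2 and 19.2 CPM in cells with 1 and 2.42 and 10.6 CPM in cells with neither. Myl7 stood at 137 and 378 CPM with both, 13.4 and 62.4 CPM with 1, and 6.93 and 28.5 CPM with neither. Actc1, cardiac actin, stood at 57.6 and 77.1 CPM with both, 5.84 and 7.03 CPM with 1, and 3.12 and 4.30 CPM with neither. These genes were thus highest in cells with both troponin genes in each library, which were 294 of 886 and 324 of 1018 gate cells. Tnnc1 stood at 192 and 452 CPM with both and at 34.3 and 43.8 CPM with neither, higher with both in each library.

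Of 9097 genes with 10 CPM or more in cells with both or with neither troponin gene, 42 were higher with both (0.462%) and 2 lower (0.022%). The 42 included sarcomere genes (Ttn, Myl7, Myl4, Actc1, Tnnc1, Myl3, Myh6, Myh7, Myom1, Ldb3, Nexn), muscle metabolism genes (Pgam2, a muscle glycolytic enzyme, and Cox6a2, a muscle subunit of cytochrome oxidase) and the calcium transporters Slc8a1, Cacna1c and Cacna1d. Cox6a2 stood at 36.1 and 64.6 CPM with both, against 0.346 and 7.04 CPM with neither. Acta2 stood at 693 and 280 CPM with both, against 225 and 39.9 CPM with neither. The 2 lower genes were Spink1 and Bst2. Cells with both troponin genes were deeper than those with neither, at a median of 18300 and 9955.5 UMIs, against 12064 and 9350.5 UMIs. In cells that carried 3 or more of the 4 gate genes other than the troponins, Ttn stood at 124 and 159 CPM with both, against 2.42 and 10.6 CPM with neither. Cells with neither are the same 204 and 250 cells under this choice, so only the cells with both could change. That last choice of cells was made after the values had been seen.

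The sarcomere genes that moved together also allow a look at their promoters. RefSeq promoters (GRCm38.p6, a newer build than mm9) were matched for 34 of the 42 genes, and the 250 bases before the start were searched on both strands. The CArG box, the element that serum response factor binds, was found in 6 of these 34 promoters (17.6%), those of Actc1, Ldb3, Myl3, Myl7, Myl9 and Myom1, and in 1.47% of all 32851 promoters. The MEF2 box was found in 2 of the 34 (5.88%), Ckb and Ttn, and in 0.508% of all promoters. For the 20 leading genes 15 promoters were matched, and each of these 2 boxes was found in 1 of them (6.67%). Neither box was found in the 4 promoters matched for the 6 gate genes. The GATA site AGATAA was found in 14.7% of the 34 and in 9.99% of all, and the E-box CAGCTG in 23.5% and 13.0%. The gene sets kept 1 promoter per gene, while the share over all took every promoter, of expressed genes or not. The shares are thus not like for like. A match is a description of letters and no evidence of binding. The promoters below are those of Myl7, Actc1 and Myl3, 3 of the 6 with a CArG box, and of Ttn with its MEF2 box, printed on the gene's strand with that box in capitals:
Myl7 (chr11:5898783-5899032, minus strand): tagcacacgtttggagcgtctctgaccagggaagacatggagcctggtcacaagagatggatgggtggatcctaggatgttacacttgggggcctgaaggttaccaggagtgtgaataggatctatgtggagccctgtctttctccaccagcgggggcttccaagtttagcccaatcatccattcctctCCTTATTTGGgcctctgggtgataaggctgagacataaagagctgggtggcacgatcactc
Actc1 (chr2:114052876-114053125, minus strand): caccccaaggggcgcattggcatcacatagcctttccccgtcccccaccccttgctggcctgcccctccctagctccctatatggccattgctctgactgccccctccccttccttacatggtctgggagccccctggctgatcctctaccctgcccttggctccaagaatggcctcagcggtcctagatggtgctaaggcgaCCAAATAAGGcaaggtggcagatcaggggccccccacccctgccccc
Myl3 (chr9:110763428-110763677, plus strand): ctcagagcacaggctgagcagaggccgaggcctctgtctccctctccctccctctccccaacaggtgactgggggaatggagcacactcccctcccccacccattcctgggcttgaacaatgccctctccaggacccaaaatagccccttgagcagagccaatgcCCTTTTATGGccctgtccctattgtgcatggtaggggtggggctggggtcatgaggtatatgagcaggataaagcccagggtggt
Ttn (chr2:76982548-76982797, minus strand): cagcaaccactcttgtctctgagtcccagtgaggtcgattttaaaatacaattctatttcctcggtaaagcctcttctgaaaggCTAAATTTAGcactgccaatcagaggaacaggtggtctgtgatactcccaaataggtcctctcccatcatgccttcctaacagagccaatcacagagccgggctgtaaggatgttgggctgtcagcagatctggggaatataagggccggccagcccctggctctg

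The CArG boxes end 51 bases before the start in Myl7, 37 in Actc1 and 75 in Myl3, and the MEF2 box of Ttn ends 156 bases before it. Myl3 and Actc1 were not called between gate cells and other WT cells, and both were higher in gate cells with both troponin genes, Myl3 at 47.3 and 99.3 CPM, against 6.23 and 8.21 CPM with neither.

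Foxf1 split the cells along a second line, one chosen after the values had been seen. Among WT cells that carried 3 or more of the other 5 gate genes, Foxf1 was detected in 423 of 804 in replicate 1 (52.6%) and in 305 of 943 in replicate 2 (32.3%). Myl7 stood at 17.8 and 77.3 CPM in cells with Foxf1, against 122 and 220 CPM in cells without it. Ttn stood at 23.9 and 57.9 CPM with Foxf1, against 154 and 101 CPM without. Mef2c stood at 85.7 and 192 CPM with Foxf1, against 235 and 322 CPM without. These muscle genes were lower with Foxf1 in both libraries, and the gap was wider in replicate 1.

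Other genes, also chosen after their values were seen, were higher with Foxf1 in both libraries. Hand1 stood at 733 and 564 CPM in cells with Foxf1, against 365 and 363 CPM in cells without. Cdx2 stood at 46.6 and 22.1 CPM, against 16.5 and 11.8 CPM, and Fendrr, the long noncoding RNA beside Foxf1, at 20.8 and 14.6 CPM, against 8.10 and 5.44 CPM. Col1a1, a fibrillar collagen, stood at 94.1 and 39.6 CPM with Foxf1, against 60.2 and 21.9 CPM without. Acta2 turned between libraries, at 529 and 104 CPM with Foxf1, against 387 and 156 CPM without, and Postn stood at 19.9 and 0 CPM, against 16.8 and 1.06 CPM. Hand2 and Tbx20 hardly followed this line, with Tbx20 at 181 and 202 CPM, against 187 and 193 CPM. Cells with Foxf1 were deeper, at a median of 17285 and 10671 UMIs, against 14217 and 9098.5 UMIs.

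**Figure D5:**
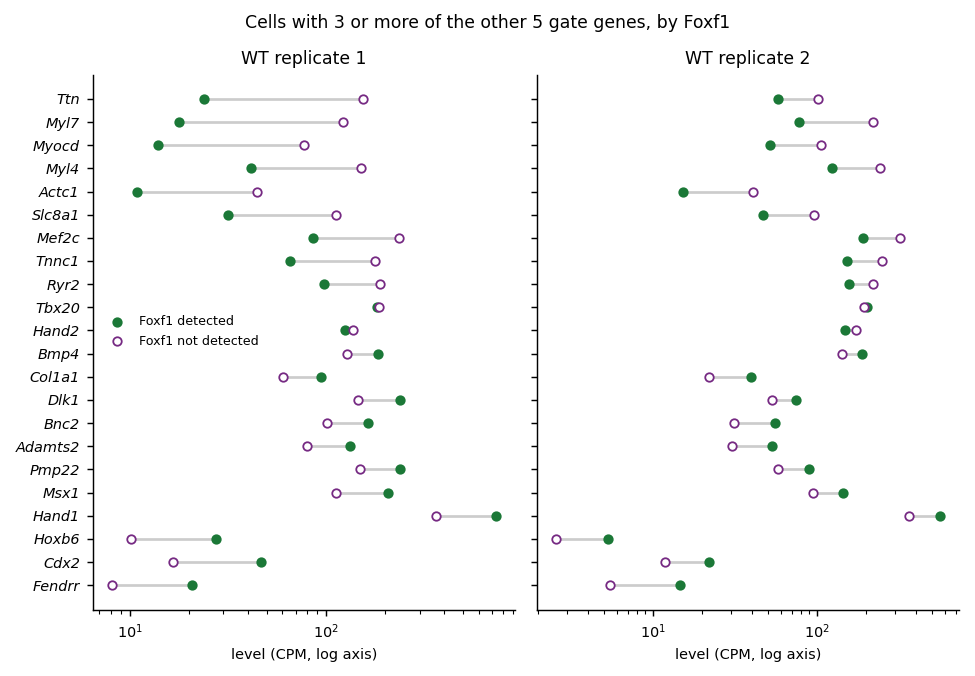
Level (CPM, log axis) of 22 genes in WT cells with 3 or more of the other 5 gate genes, for cells with Foxf1 detected (filled) and not detected (open), 1 panel per WT library. Muscle genes at the top, such as Myl7 (17.8 and 77.3 CPM with Foxf1, 122 and 220 CPM without), and genes such as Hand1 at the bottom lie on opposite sides in both panels.

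The 2 WT libraries differed in what their gate cells held. Of the 9287 genes, 75 were at least 2-fold higher in the gate cells of replicate 1 and 19 in those of replicate 2, and 43 and 3 were so in the other cells. Col3a1, a fibrillar collagen, stood at 38.6 CPM in gate cells of replicate 1 and 3.16 CPM in those of replicate 2, and Postn, or periostin, at 18.5 and 0.722 CPM. Acta2 stood at 458 and 135 CPM, Hoxb6 at 19.6 and 3.70 CPM and Hoxc8 at 11.4 and 2.44 CPM. Some of the differences were library-wide. The ribosomal transcript Rn45s stood at 8012 and 2571 CPM in gate cells of replicates 1 and 2 and at 9073 and 2764 CPM in other cells, and Lars2, Mir6236 and Camk1d were likewise over 2-fold higher in replicate 1 in both. Their part in the other differences was not tested. Gate cells of replicate 1 carried more collagen, smooth muscle actin and central Hox RNA, and those of replicate 2 more Myl7, Myl4 and Myocd. In the other cells Col3a1 stood at 1.54 and 0.475 CPM and Hoxb6 at 0.649 and 0.246 CPM. Acta2 stood at 63.7 and 28.5 CPM there, so it was over 2-fold higher in replicate 1 in gate cells and in other cells. With 1 library per replicate this spread has no test, and whether it comes from the cultures or the captures cannot be told apart.

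The genes that lead the WT gate cells were then set beside LSD1 KO. They were chosen for high levels in WT cells that are also in the WT sums, so a fall is set in part by the choice, and counts and p-values over them are no independent support. Of the 20 leading genes, 18 fell in whole LSD1 KO EBs and 0 rose, with a median log2 difference of -2.53, beside 21.7% of all genes falling and a median of -0.00. Bmp5 stood at 1.97 and 1.38 CPM in LSD1 KO EBs, against 60.4 and 52.1 CPM in WT EBs (log2 -5.19, SE 0.19, edgeR adjusted p = 0.000365). Rgs5 stood at 0.409 and 0.128 CPM, against 40.3 and 24.1 CPM (log2 -7.00, SE 0.47, edgeR adjusted p = 0.000658). Mef2c stood at 13.6 and 13.5 CPM, against 52.3 and 56.5 CPM (log2 -2.13, SE 0.11, edgeR adjusted p = 0.000411). The genotypes did not overlap for these genes. Msx1 and Pmp22 did not pass. Msx1 stood at 31.4 and 4.83 CPM in LSD1 KO EBs, against 60.7 and 34.0 CPM in WT EBs (log2 -1.51, SE 0.79, edgeR adjusted p = 0.168), and its LSD1 KO libraries lay far apart. Bmp4 fell by 2.06 on the log2 scale (SE 0.43, edgeR adjusted p = 0.0142), a call that was lost without WT replicate 1 (log2 -1.84, edgeR adjusted p = 0.0614). Conversely, Msx1 passed without LSD1 KO replicate 1 (log2 -3.40, edgeR adjusted p = 0.000809) and Pmp22 without WT replicate 2 (log2 -1.58, edgeR adjusted p = 0.03).

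A fall was not particular to the leading genes, since 8 of the 10 lowest genes of the gate cells also fell. Spink1 stood at 0.530 and 2.34 CPM in LSD1 KO EBs, against 1612 and 1019 CPM in WT EBs, and Epcam at 273 and 277 CPM, against 296 and 261 CPM, with no call for Epcam (edgeR adjusted p = 0.248). Of the 16 cardiac transcription factors, 14 fell and 0 rose, with a median of -2.99, beside 21.7% of all genes falling. Among cells outside the gate, compared below, 14 of the 16 fell as well and 0 rose, with a median of -2.22. Myocd stood at 0.242 and 0.144 CPM in LSD1 KO EBs, against 21.9 and 27.3 CPM in WT EBs. Nkx2-5 and Isl1, which gate cells did not set apart, fell as well, Isl1 to 7.83 and 2.73 CPM in LSD1 KO EBs, against 40.0 and 43.2 CPM in WT EBs. Zfpm2 stood at 73.1 and 35.2 CPM, against 47.2 and 41.7 CPM, and did not pass.

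Not all muscle genes fell. Of 17 sarcomere genes tested 11 fell and 2 rose, with a median of -0.99, where 21.7% of all genes fell and 22.7% rose. The 2 that rose were Actc1 and Actn2: Actc1 stood at 39.4 and 22.3 CPM in LSD1 KO EBs, against 16.8 and 11.7 CPM in WT EBs (log2 0.99, SE 0.29, edgeR adjusted p = 0.0397), and Actn2, alpha-actinin of the Z-disc, at 18.4 and 18.5 CPM, against 5.16 and 5.32 CPM. Smooth muscle and actin genes went both ways: of 9 tested, 3 fell and 4 rose, with a median of -0.04. Tagln, a smooth muscle actin-binding protein, was among those that rose. It stood at 595 and 345 CPM in LSD1 KO EBs, against 93.2 and 46.9 CPM in WT EBs (log2 2.63, SE 0.39, edgeR adjusted p = 0.00467). Actc1, Actn2 and Tagln were thus on in LSD1 KO EBs, where 4 gate cells were found. Actc1 stood at 25.4 and 29.7 CPM in WT gate cells.

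The last comparison left gate cells out of both genotypes, which removed 886 and 1018 cells from WT but 3 and 1 from LSD1 KO. WT libraries enter this comparison and the one before, so the values are given side by side. Leaving out the WT cells in which these genes are high lowers them in WT by construction. Among cells outside the gate, 13 of the 20 leading genes fell in LSD1 KO and 0 rose, with a median of -1.21, where 21.9% of all genes fell and 22.6% rose. Bmp5 stood at 1.97 and 1.38 CPM in LSD1 KO cells, against 24.8 and 25.7 CPM in WT cells outside the gate (log2 -4.04, SE 0.20, edgeR adjusted p = 0.000231). Rgs5 stood at 0.409 and 0.129 CPM, against 8.46 and 7.17 CPM (log2 -4.97). Ttn stood at 3.47 and 4.10 CPM, against 4.48 and 3.15 CPM (log2 -0.13, SE 0.23, edgeR adjusted p = 0.662), and Bmp4 at 16.8 and 6.41 CPM, against 14.5 and 13.3 CPM (log2 -0.40, SE 0.40, edgeR adjusted p = 0.448). Outside the gate, then, Bmp5 and Rgs5 still differed between genotypes, and Ttn, Bmp4, Snai2, Msx1, Pmp22, Runx1t1 and Igsf11 did not pass the test. Free RNA of the WT libraries held 50.8 and 39.4 CPM of Bmp5 and 26.0 and 16.0 CPM of Rgs5. It held 67.8 and 32.5 CPM of Bmp4 and 9.50 and 10.1 CPM of Ttn. For all of these it lay above the WT cells outside the gate, and its part in their levels was not tested. Bmp4 passed only without LSD1 KO replicate 1 (log2 -1.24, edgeR adjusted p = 0.00261). The 13 became 10 without WT replicate 1. WT cells with 2 gate genes stayed in this sum, and with them also left out 9 of the 20 fell and Ttn stood higher in LSD1 KO (log2 0.65, edgeR adjusted p = 0.0471).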

How the data were processed

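The authors deposited 1 matrix of UMI counts per library, made with Cell Ranger 7.1.0 on mm9 (builds and versions from the submitters' processing notes, which also name Seurat 4.3.0). That version also counts intronic reads by default. No mitochondrial genes are in the matrices. Each of 4 libraries was loaded with 16000 cells and held 72285943 to 75406512 UMIs. Barcodes with 2000 UMIs and 1000 genes were kept, and doublets were not removed. Groups came from the sample labels.

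Gate cells carried 3 or more of 6 genes. Counts were summed per library and set as CPM, with 5 CPM added before folds. Named genes were the 6 gate genes, the 20 highest and 10 lowest by the fold nearer to 1 at 50 CPM or more, up to 6 per list by level, and genes of counts of 5 or fewer; further list members at or near 0 and the genes of the troponin, Foxf1 and replicate contrasts were chosen after their values were seen. Members and lists were chosen with earlier results of these data known. Genotypes were compared on summed counts with edgeR 4.0.16 (R 4.3.3, TMM, low genes filtered, Benjamini-Hochberg), with DESeq2 1.42.0 as an alternative, and shares with an exact permutation test (scipy 1.17.1). The scripts were tested on simulated data. P-values measure the spread between 2 libraries per genotype. Genes that share reads with a copy or an antisense partner may be uncertain. No test was made within LSD1 KO gate cells, which were 3 and 1.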

Additional observations from a re-analysis of the deposited data

How the results depend on the processing

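The gate share difference, LSD1 KO minus WT, was -27.8 points with 2 gate genes asked, -13.6 with 4 and -4.03 with cells thinned to 2000 UMIs, and the WT share was 28.4%, 13.6% and 4.03%. Without 1 library it was -24.2 to -16.0 points, and the WT share 16.1% to 24.2%. Genes lower in gate cells were 446 with 1 CPM added, 168 with 10 CPM added and 165 with 2 gate genes asked. Without 1 library, genes higher were 220 to 316 and genes lower 313 to 411. The 20 leading genes kept a 2-fold difference in every alternative run, and the 10 lowest in all but 2 gate genes asked (8). Both sets were chosen by the fold of this same contrast, so keeping it is in part set by the choice. Without 1 library, 2268 to 3224 genes fell and 2669 to 3380 rose in EBs, with 17 to 19 leading genes falling; outside the gate 2381 to 3112 fell and 2569 to 3207 rose, with 10 to 14 leading genes falling. Scaled by library totals alone, 2627 fell and 4800 rose in EBs, and 2650 and 4842 outside the gate. The cause was not tested.

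Outside the gate, leaving out cells with 2 gate genes turned Ttn (log2 0.65), Bmp4 (0.072), Runx1t1 (0.055), Mef2c (0.18) and Snai2 (0.035). Bmp4 (0.13) and Msx1 (0.46) turned without LSD1 KO replicate 2, and Ttn (0.10) without WT replicate 1. Over the fits without 1 library, Ttn ranged over -0.34 to 0.10, Bmp4 over -1.24 to 0.13 and Msx1 over -2.22 to 0.46. With the replicate number as a block, 3977 fell and 4133 rose in EBs, with 20 leading genes falling, Msx1 (edgeR adjusted p = 0.0271) and Pmp22 (edgeR adjusted p = 0.0163) now among them, and 4166 and 4294 outside the gate, with 14; the gate share difference stayed at -20.1 points. Same-numbered libraries deviated together only weakly (correlation 0.155 and 0.163), and with 2 pairs the numbers were not taken as a pairing. With 2 libraries per genotype, no permutation test can pass 0.05.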
